A study of Mus musculus with 4 samples.

Results

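The regions described here are the accessible chromatin of gene deserts in natural killer (NK) cells from mouse spleen, grown in culture. They comprise all accessible regions that lay outside every protein-coding gene and more than 100 kb from the nearest one. They numbered 5571 of 91266 regions (6.10%). The rule uses position alone, with protein-coding genes of the RefSeq annotation of GRCm38.p6, and no list membership. The cells were wild type, from the C57BL/6 strain, and were kept for 72 h in interleukin-15 (IL-15), a cytokine that NK cells need for survival. There were 4 ATAC-seq samples, 2 in a high dose (HD) and 2 in a low dose (LD). The labels give neither the concentrations nor the number of mice. The deposited tables give 1 set of regions for all samples and the authors' own up and down lists of regions that differed between the doses, with 0 columns of values per sample. No value below therefore has a replicate error, the authors' calls could not be retested, and sequencing depth is unknown. The reference dose of the lists is not given in the sources used here, so the names up and down are kept without assigning either to a dose. The authors' statistical threshold is likewise not given. The tables hold no marker levels against which the NK cell label could be checked.

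Gene deserts are long stretches of chromosome without protein-coding genes. ATAC-seq uses a transposase that cuts open DNA, so an accessible region in a desert marks a site where nucleosomes are displaced, often by bound transcription factors. Many such sites in lymphocytes are distal enhancers that act on promoters over long distances through chromatin looping. Others are binding sites of the architectural protein CTCF or starts of long noncoding RNAs (lncRNAs). The nearest gene is therefore not necessarily the gene that a desert site acts on, and gene names below give positions only.

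A desert here means the interval between 2 neighbouring protein-coding genes, or between a gene and the chromosome end, that held at least 1 of the 5571 regions. There were 789 deserts, 12 of them at a chromosome end. The label was checked against other annotated features. Of the 5571 regions, 1397 (25.1%) overlapped an lncRNA gene, so that many deserts are free of protein-coding genes only. In addition, 5 intervals held variable, joining or constant gene segments of antigen receptors, which RefSeq does not class as protein-coding. These 5 intervals contained 278 regions, of which 6 were up and 4 were down. The largest were the interval from Adam6a to Zfp386 in the immunoglobulin heavy chain locus, with 164 regions, and the interval from Gm36448 to Dad1 in the T cell receptor alpha and delta locus, with 82. Without these 5 intervals, 5293 regions remained, of which 5.82% were up and 2.76% were down, compared with 5.64% and 2.69% of all 5571.

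Genomic sequence was at hand only for windows from 250 bp before to 50 bp after annotated RefSeq gene starts (GRCm38.p6). Of the 314 up regions in deserts, 6 overlapped such a window, and of the 150 down regions 2 did. Of the 5107 unlisted desert regions, 103 (2.02%) did. All 8 windows at listed regions belonged to lncRNA genes. The 2 windows at down regions and the 2 up windows that lay wholly inside their region are printed, as examples of listed desert regions that cover an annotated transcript start. Sequences read 5′ to 3′ on the strand of the gene, and capitals mark matches to any of 11 short motifs searched on both strands. The Ifngas1 window is chr10:118556476-118556775 on the minus strand, wholly inside the down region chr10:118556418-118556922. The Gm32196 window is chr16:25178080-25178379 on the minus strand, with 271 of its 300 bases inside the down region chr16:25178040-25178350. The Gm39920 window is chr2:124788447-124788746 on the minus strand, wholly inside the up region chr2:124788292-124788873. The Gm30214 window is chr14:53039417-53039716 on the minus strand, in the T cell receptor interval from Gm36448 to Dad1, wholly inside the up region chr14:53039342-53039822.
Ifngas1 (down): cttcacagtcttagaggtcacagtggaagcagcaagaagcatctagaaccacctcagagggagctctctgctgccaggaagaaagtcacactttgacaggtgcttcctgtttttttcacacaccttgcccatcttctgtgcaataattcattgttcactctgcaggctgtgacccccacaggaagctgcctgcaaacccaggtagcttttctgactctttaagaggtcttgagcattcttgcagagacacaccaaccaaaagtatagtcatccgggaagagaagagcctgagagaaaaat
Gm32196 (down): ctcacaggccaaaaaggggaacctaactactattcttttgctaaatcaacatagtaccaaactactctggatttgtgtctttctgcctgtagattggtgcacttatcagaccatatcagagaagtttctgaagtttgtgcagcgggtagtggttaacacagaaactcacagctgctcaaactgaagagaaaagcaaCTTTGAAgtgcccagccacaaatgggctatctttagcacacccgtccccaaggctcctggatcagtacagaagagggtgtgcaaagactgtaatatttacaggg
Gm39920 (up): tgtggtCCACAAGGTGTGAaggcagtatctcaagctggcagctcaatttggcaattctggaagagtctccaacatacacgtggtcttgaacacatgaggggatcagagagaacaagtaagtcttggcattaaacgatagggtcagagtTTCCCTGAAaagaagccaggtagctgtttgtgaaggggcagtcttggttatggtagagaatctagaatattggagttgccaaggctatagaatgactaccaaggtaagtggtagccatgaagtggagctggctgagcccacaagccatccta
Gm30214 (up): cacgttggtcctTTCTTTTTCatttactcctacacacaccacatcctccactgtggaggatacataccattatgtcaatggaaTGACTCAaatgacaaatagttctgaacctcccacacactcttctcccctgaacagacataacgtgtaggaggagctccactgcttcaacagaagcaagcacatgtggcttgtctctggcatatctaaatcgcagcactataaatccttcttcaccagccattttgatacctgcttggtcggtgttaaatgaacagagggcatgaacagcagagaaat

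Ifngas1 is an lncRNA gene that neighbours Ifng, the gene of interferon gamma, and is transcribed from the opposite strand. Its start window had a GC content of 47.7% and held none of the 11 motifs. The Gm32196 window had a GC content of 44.3% and 1 match, to the TCF/LEF motif CTTTGAA, which 5.14% of all 32817 promoter windows held. The median GC content of all promoter windows was 52.7%, above that of each printed window, and motif shares were not matched for it. The Gm39920 window (GC content 47.0%) held a match to the T-box motif AGGTGTGA, found in 1.27% of promoter windows. It overlapped a match to the CTCF motif CCACNAGG, found in 4.99%, and a STAT motif (TTCNNNGAA, 8.29%) lay further along. The Gm30214 window (GC content 44.3%) held a match to the interferon regulatory factor motif GAAANNGAA, found in 8.55% of windows, and one to the AP-1 motif TGANTCA, found in 7.81%. The 5 other motifs searched had no match in the 4 printed windows. Of these, the RUNX motif TGTGGTT occurs in 5.27% of all promoter windows and the ETS motif CCGGAAGT in 3.89%. The NF-kB motif GGANTTTCC occurs in 1.26% and the NFAT motif TGGAAA in 21.4%. The GATA motif AGATAA occurs in 11.2% of windows. The 4 up windows not printed were only partly inside their regions. Among them, the Gm6634 window held AP-1 and TCF/LEF matches, the Gm33984 window an NFAT match and the Gm13816 window none. The Gm1965 window held RUNX and CTCF matches, both outside the part that overlapped the region. A match describes letters in these windows and is no evidence of binding.

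Desert regions were thinly spread. Between genes, the territory more than 100 kb from a protein-coding gene amounted to 757.1 Mb and held 7.30 accessible regions per Mb. Territory outside genes but within 100 kb of one held 34.4 per Mb, and gene spans held 54.1 per Mb. Of 1671 intervals longer than 200 kb, 777 (46.5%) contained at least 1 region beyond 100 kb and 894 contained none. A desert with any such region held a median of 3. The median distance of the 5571 regions from a gene was 182.8 kb (interquartile range 133.2 to 282.9 kb). Up regions had a median distance of 178.2 kb, down regions one of 189.8 kb, and regions in neither list one of 183.0 kb. At the threshold of the rule, the 3 nearest regions inside it were 100024, 100073 and 100087 bp from a gene and the 3 nearest outside it were 99929, 99933 and 99964 bp away, and none of these 6 was in a list.

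Desert regions were in the authors' lists more often than the full set of regions. In deserts, 314 of 5571 regions were up (5.64%, 95% Wilson interval 5.06 to 6.27%) against 4.21% of all 91266 regions. For the down list the count was 150 of 5571 (2.69%, 2.30 to 3.15%) against 1.40% of all regions. Intervals here cover counting error only and treat regions as independent, which neighbours are not. Regions outside genes but within 100 kb had an up share of 5.43% (5.17 to 5.69%), inside the desert interval, and a down share of 1.22% (1.10 to 1.35%), below it. Regions overlapping genes had shares of 3.42% up and 1.36% down. Up regions were 67.7% of the listed desert regions (63.3 to 71.8%), 81.7% of the listed regions outside genes within 100 kb and 75.1% of all listed regions.

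The distance classes show where the down share is higher. It was 1.32% at 10 to 50 kb from a gene and 1.50% (1.19 to 1.91%) at 50 to 100 kb. In deserts it was 2.68% (2.17 to 3.31%) at 100 to 200 kb, 2.86% (2.21 to 3.69%) at 200 to 500 kb and 2.53% (1.38 to 4.59%) at 500 to 1000 kb. The up share took another course, from 4.40% at 0 to 10 kb to 6.83% (6.12 to 7.60%) at 50 to 100 kb, then 5.81%, 5.41% and 6.31% in the same 3 desert classes. Beyond 1000 kb lay 85 regions, 1 up and 0 down. The Wilson interval of that 0 reaches 4.32% and so includes the down shares of the other desert classes. A lower down share beyond 1000 kb was therefore not shown.

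**Figure D1:**
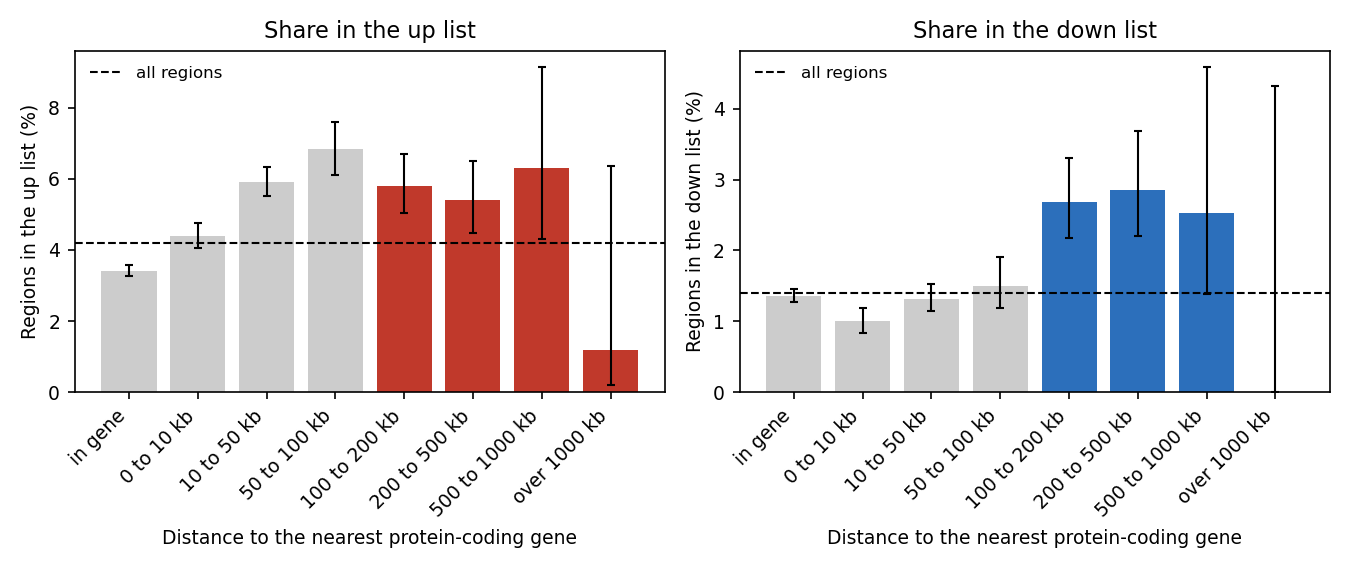
Percent of accessible regions in the authors' up list (left) and down list (right) by distance to the nearest protein-coding gene. Coloured bars are desert regions, grey bars all others, whiskers 95% Wilson intervals and the dashed line all 91266 regions (4.21% up, 1.40% down). The down share was 1.50% at 50 to 100 kb and 2.68% at 100 to 200 kb, while the up share was 6.83% and 5.81%.

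Desert regions had a median width of 354 bp, and all regions one of 400 bp. Within deserts, the median was 468 bp among up regions, with quartiles at 389.2 and 576.2 bp. Down regions were wider, with a median of 546 bp (quartiles 417.8 and 733.8 bp), and regions in neither list narrower, with a median of 335 bp (quartiles 232 and 546 bp). When the shares of all regions were reweighted to the widths of the desert regions, they came to 4.41% up and 1.37% down, against the observed 5.64% and 2.69%. With regions outside genes within 100 kb as the standard, the same calculation gave 5.42% up and 1.20% down.

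The width classes of desert regions differed in which list they held. From 401 to 480 bp, 13.6% of desert regions were up and 3.52% down, compared with 8.22% and 2.01% of all regions of that width. From 734 to 974 bp, 5.25% were up and 6.13% down, compared with 3.21% and 2.31% of all regions. Among the 693 narrowest desert regions, of 150 to 197 bp, 1 was up (0.144%) and 0 were down. Of all regions of that width, 0.290% were up and 0.194% down. From 198 to 400 bp the up share of desert regions was lower than that of all regions or nearly the same. It was 0.474% against 0.726% at 198 to 234 bp, and 1.03% against 1.49% at 235 to 273 bp. At 274 to 326 bp it was 4.86% against 4.84%, and at 327 to 400 bp 7.47% against 8.28%. In these classes from 198 to 400 bp the down share of desert regions was the higher. The 3 widest up regions were chr11:24401152-24402585 (1434 bp) beyond Bcl11a, chr15:61407912-61409053 (1142 bp) between A1bg and Myc, and chr6:98597042-98598154 (1113 bp) between Gm765 and Foxp1. The nearest genes of these 3 were Bcl11a (227.6 kb), A1bg (486.6 kb) and Gm765 (254.3 kb). The 3 widest down regions were chr6:140231269-140232870 (1602 bp) between Capza3 and Plekha5, chr5:64498306-64499521 (1216 bp) beyond Tbc1d1 and chr13:85724138-85725268 (1131 bp) between Rasa1 and Cox7c.

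**Figure D2:**
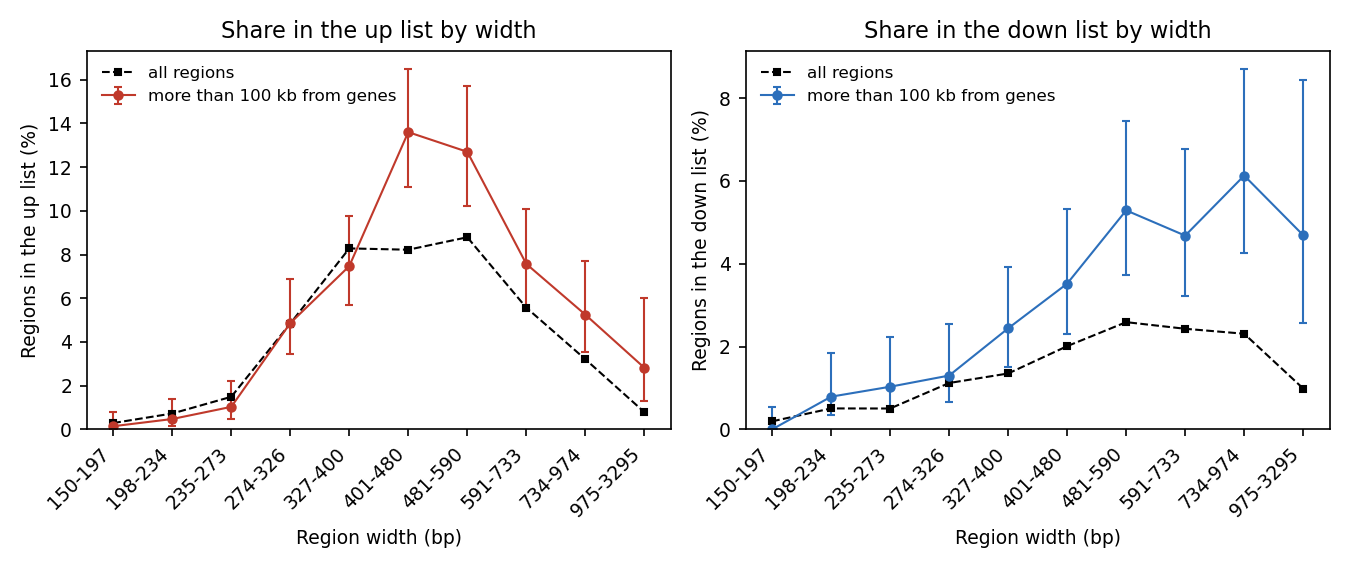
Percent of regions in the up list (left) and down list (right) in 10 width classes (bp, narrow to wide), for desert regions (coloured points, whiskers 95% Wilson intervals) and all regions (black squares). Among desert regions the up share was highest from 401 to 480 bp (13.6%), and the down share was highest from 734 to 974 bp (6.13%, against 2.31% of all regions).

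Of the 789 deserts, 248 (31.4%) held at least 1 listed region and 99 held 2 or more. In 72 of these 99 (72.7%) all listed desert regions were in a single list, 56 of them up and 16 down. Both lists were present in the other 27. The number with 2 or more was 181 when regions beyond 50 kb were counted and 41 beyond 200 kb. At least 4 listed desert regions were found in 26 deserts. By these desert regions, 9 of the 26 were up only, 7 were down only and 10 had both. Down regions were the more gathered list, with at most 11 in 1 desert against 6 for up regions. The 5 deserts with most down regions held 37 of the 150 (24.7%), whereas the 5 deserts with most up regions held 27 of 314 (8.60%). These percentages also depend on the length of each list. As the only listed region of their desert, counting both lists, stood 37 down regions (24.7%) and 112 up regions (35.7%). A down region beside an up region is not alone in this count, so it does not measure gathering within a list. With the 5 deserts richest in down regions left out, the down share of desert regions was 2.08% (1.73 to 2.50%).

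Consecutive listed regions of a desert formed 216 pairs, of which 178 (82.4%) were in the same list, 113 both up and 65 both down. At spacings under 5 kb, 30 of 32 pairs matched, and from 5 to 20 kb 32 of 34 did. From 20 to 100 kb 67 of 86 pairs (77.9%) matched, from 100 to 500 kb 45 of 58 (77.6%) and beyond 500 kb 4 of 6. Of all listed desert regions 67.7% were up, which is a share of regions and no reference value for matching pairs. Such a value was not computed. Unlisted desert regions lay between the partners of 149 pairs.

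**Figure D3:**
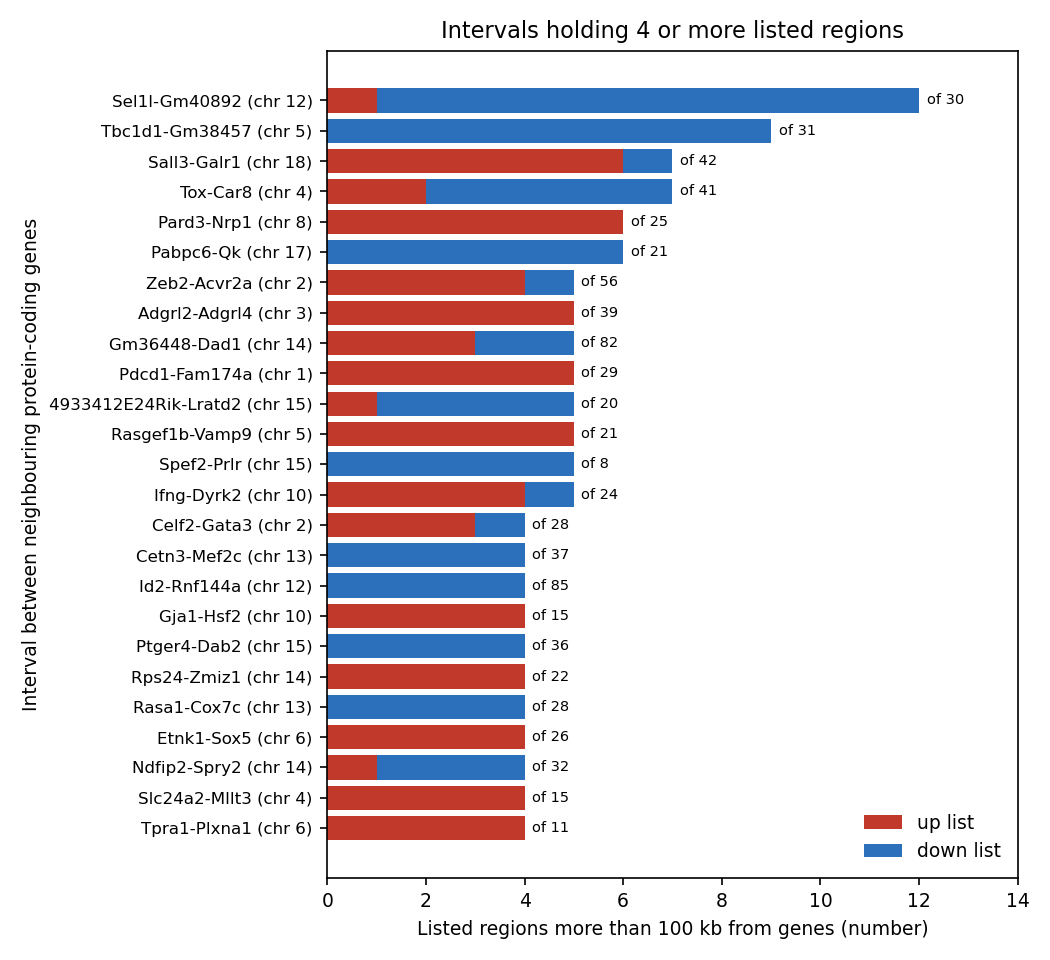
Number of listed desert regions in 25 of the 26 intervals that held 4 or more, each named by its bounding genes and chromosome. Red bars count up regions, blue bars down regions, and the text gives all desert regions of the interval. The interval from Sel1l to Gm40892 held 11 down and 1 up of 30 regions, and in 7 intervals all listed desert regions were down.

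The desert with the most listed regions was the 1.03 Mb interval on chromosome 12 between Sel1l, which encodes an adaptor of endoplasmic reticulum protein degradation, and the predicted gene Gm40892. It held 30 desert regions, of which 11 were down and 1 was up. The 11 down regions spanned 479.8 kb, from chr12:92303111-92303718 to chr12:92782196-92782957. They measured 274 to 1035 bp, with 15 unlisted desert regions and the up region chr12:92605655-92606196 among them. The nearest down region to Sel1l was 454.0 kb from the gene. None of the 5 accessible regions of the interval that lay within 100 kb of a gene was in a list. The next interval, from Gm40892 to Flrt2, held 2 down and 1 up of 16 desert regions.

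On chromosome 5, the 0.45 Mb interval between Tbc1d1, a Rab GTPase-activating protein of glucose transporter traffic, and Gm38457 held 9 down and 0 up of 31 desert regions. Of these, 7 lay close together, from chr5:64471970-64472854 to chr5:64498306-64499521. The other 2 were chr5:64599744-64600384 and chr5:64681182-64681553. The last was 122.0 kb from Klf3, which encodes a Krüppel-like transcriptional repressor and lies at the Gm38457 end of the interval. A further 3 of the 15 regions within 100 kb of the bounding genes were down.

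In another pair of deserts the listed regions beyond 100 kb were all down and lay in a short span. Between Pabpc6, of the poly(A)-binding protein family, and Qk, which encodes the RNA-binding protein quaking, 6 of 21 desert regions were down and 0 were up. These 6 spanned 128.5 kb on chromosome 17, and 5 of them fell between chr17:9965396-9965677 and chr17:10007569-10007884. Between Spef2 and Prlr, the prolactin receptor gene, 5 of 8 desert regions were down, within 46.1 kb from chr15:10029836-10030335 to chr15:10074927-10075894. This was the highest listed share (62.5%) of the 26 deserts with 4 or more listed regions, and the desert was singled out after its values were seen. Spef2 separates it from Il7r, the interleukin-7 receptor gene, which was 499.9 kb from the nearest of the 5. Within 100 kb of a gene, the interval from Spef2 to Prlr held 3 further regions, of which 1 was up and 1 was down. The interval from Pabpc6 to Qk held 4 such regions, 0 up and 0 down.

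Other deserts held up regions only. Between Pard3, a cell polarity gene, and Nrp1, a co-receptor of semaphorins and growth factors, 6 of 25 desert regions were up over 422.4 kb on chromosome 8. They were between 331 and 547 bp wide. Between the adhesion receptor genes Adgrl2 and Adgrl4, 5 of 39 were up. These 5 lay in 2 groups inside 128.7 kb, 3 from chr3:149338586-149339111 to chr3:149341996-149342495 and 2 from chr3:149462218-149462671 to chr3:149467010-149467333, all within lncRNA genes. The 5 up regions of 21 between Rasgef1b and Vamp9, a desert singled out after its values were seen, all overlapped the lncRNA gene A930011G23Rik.

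The interval from Sall3, a spalt-like transcription factor gene, to the galanin receptor gene Galr1 on chromosome 18 held 6 up and 1 down of 42 desert regions over 808.2 kb. In the interval from 4933412E24Rik to Lratd2 on chromosome 15, 4 of 20 desert regions were down, at 120.1 to 293.0 kb from 4933412E24Rik. The 1 up region of that interval, chr15:60677996-60678465, was at the opposite end, 140.5 kb from Lratd2. In the T cell receptor interval from Gm36448 to Dad1, 3 up and 2 down were listed of 82 desert regions.

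**Figure D4:**
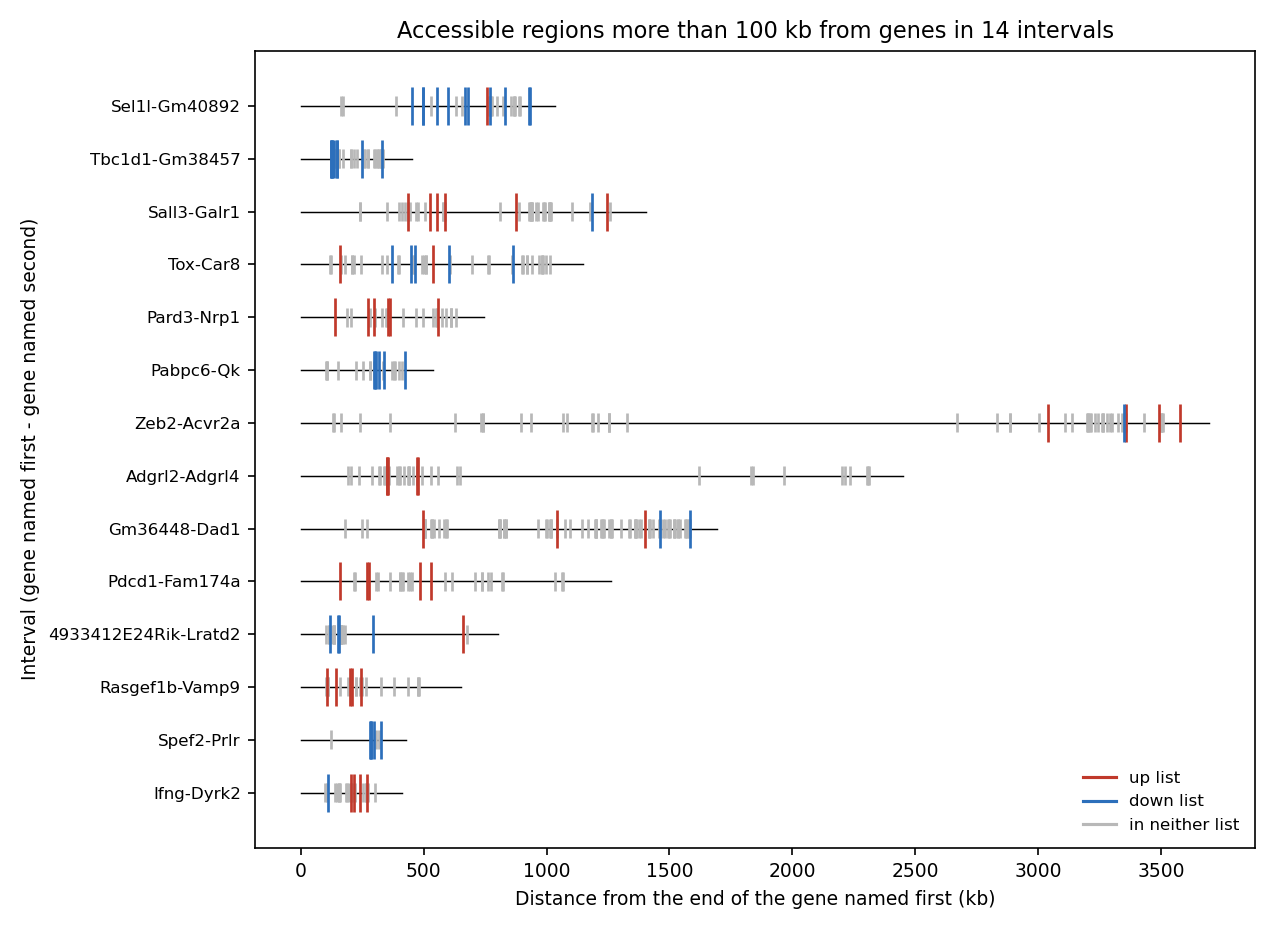
Positions of desert regions in 14 of the 15 intervals with 5 or more listed regions, as distance in kb from the end of the gene named first. Tall red marks are up regions, tall blue marks down regions and short grey marks unlisted regions. The 5 down regions between Spef2 and Prlr lay within 46.1 kb, whereas the 6 up regions between Sall3 and Galr1 were spread over 808.2 kb.

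Deserts next to genes of NK cell biology and to neuronal and developmental genes were examined with 4 gene lists. These lists were chosen with earlier results of these data known. Of 91 lymphoid transcription regulators, 37 bounded a desert, and 24 of the 45 deserts concerned (53.3%) held a listed region, against 31.4% of all deserts. These deserts were also fuller, with 815 desert regions, of which 4.54% were up and 2.09% were down, against 5.64% and 2.69% of all desert regions. Of 97 cytokine, receptor and survival genes, 20 bounded 20 deserts, and 7 of these held a listed region. Their 222 desert regions included 12 up (5.41%) and 5 down (2.25%). The intervals bounded by 48 neuronal adhesion and guidance genes held 266 desert regions, of which 7.52% were up and 2.26% down. Those bounded by 48 developmental transcription factor genes held 332, of which 7.23% were up and 3.31% down.

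Tox encodes a transcription factor required for NK cell development. The 1.15 Mb interval between Tox and Car8 held 5 down and 2 up of 41 desert regions. The down regions ran from chr4:7363511-7364625, 372.0 kb from Tox, to chr4:7853240-7853837, 861.7 kb from it. The up region nearest to Tox, chr4:7151774-7152439, was 160.2 kb away and closer than any of the 5 down regions.

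Zeb2 encodes a zinc-finger factor of NK cell maturation, and Id2 an inhibitor of E proteins needed by innate lymphocytes. Between Zeb2 and Acvr2a, 4 up and 1 down of 56 desert regions were listed, all at least 3039.2 kb from Zeb2 and in the last part of the 3.70 Mb interval, toward the activin receptor gene Acvr2a. Between Id2 and Rnf144a, 4 of 85 desert regions were down and 0 were up. They lay at chr12:25269528-25270483, chr12:25366072-25366295, chr12:25414933-25415576 and chr12:25879337-25879883, which is 173.4, 270.0, 318.8 and 783.2 kb from Id2. Between Celf2 and Gata3, a factor of lymphoid lineage choice, 3 up and 1 down of 28 were listed.

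Ifng, the gene of the main effector cytokine of NK cells, bounds a 0.41 Mb interval that ends at the kinase gene Dyrk2. Here 4 up and 1 down of 24 desert regions were listed. The down region is the one at the Ifngas1 start printed above, 110.5 kb from Ifng. The 4 up regions lay farther away, from chr10:118650099-118650396 (204.2 kb from Ifng) to chr10:118712998-118713255 (267.1 kb). In the map of intervals the down mark is nearer to Ifng than the 4 up marks. Of the 32 other regions of the interval, within 100 kb of a gene, 3 were up and 2 were down. Pdcd1, the gene of the inhibitory receptor PD-1, bounds a 1.26 Mb interval in which 5 of 29 desert regions were up and 0 were down, from 157.2 to 529.3 kb from the gene.

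In each of the deserts bounded by 4 further regulator genes, 3 desert regions were up and 0 were down. The up regions beyond Bcl11a lay within 28.4 kb at 221.9 to 249.6 kb from the gene, and those of Ets1, a factor of NK cell development, within 37.9 kb at 428.5 to 466.1 kb. Those between Gm765 and Foxp1 lay 284.7 to 371.0 kb from Foxp1, and those between Cyria and Mycn 307.8 to 438.9 kb from Mycn. Of the former, 2 were nearer to Gm765 (211.1 and 254.3 kb), and all 3 of the latter were nearer to Cyria (115.6 to 246.4 kb). Within 100 kb of genes, 1 region was up in each of the Bcl11a and Mycn intervals and 1 of 7 was down in the Ets1 interval. The deserts on either side of Myc held 1 up and 1 down of 23 regions (toward A1bg) and 0 up and 2 down of 61 (toward Gsdmc). The 2 down regions toward Gsdmc were 817.0 and 1671.3 kb from Myc, and the latter was 113.9 kb from Gsdmc.

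The farthest up region, chr12:63103690-63104268, lay 1245.8 kb from Lrfn5, a synaptic adhesion gene. It was followed by a site in the heavy chain locus (991.9 kb from Adam6a), chr2:8865428-8865882 (991.2 kb from Gata3), chr3:70807154-70807515 (778.4 kb from Otol1) and chrX:121654557-121655174 (739.4 kb from Nap1l3). The farthest down region, chr12:115171800-115172245, was also in the heavy chain locus, 875.5 kb from Zfp386. Then came chr15:49784377-49784699 (870.1 kb from Trps1), the site 817.0 kb from Myc and chr9:11579129-11579331 (674.4 kb from Cntn5).

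Most deserts held no listed region. In 541 of the 789 no desert region was listed, and these held 2097 regions. The 3 longest deserts, between Celf4 and Pik3c3 (4.51 Mb), Cntnap5b and Cdh20 (4.28 Mb) and Slc39a10 and Tmeff2 (3.97 Mb), had 1, 2 and 1 desert regions, none of them listed. The fullest deserts without a listed region were those between Tle3 and Rplp1 with 29 regions, Zpld1 and Nfkbiz with 28 and Nrip1 and Usp25 with 27. The down share did not follow the fullness of deserts in a single direction. It was 1.71% (0.667 to 4.31%) in the 234 deserts with a single region, 1.44% in those with 2 to 4, 2.18% with 5 to 9 and 1.69% with 10 to 19. It was 4.70% (3.74 to 5.88%) with 20 to 39 regions and 2.48% (1.64 to 3.72%) in the 15 deserts with 40 or more. The class of 20 to 39 regions comprised 57 deserts with 71 down regions. Few deserts supplied many of these, with 11 between Sel1l and Gm40892, 9 between Tbc1d1 and Gm38457 and 6 between Pabpc6 and Qk. The up share in the same classes was 6.84%, 6.86%, 6.53%, 6.16%, 5.29% and 3.27%.

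Overlap with lncRNA genes was alike in the lists, at 80 of 314 up regions (25.5%), 36 of 150 down regions (24.0%) and 1281 of 5107 unlisted regions (25.1%). When the distance of 100 kb was required from genes of any biotype, 536 regions remained. Of these, 27 were up (5.04%, 3.48 to 7.23%) and 31 were down (5.78%, 4.10 to 8.09%). The 31 down regions included 6 of the interval from Sel1l to Gm40892 and all 5 of the interval from Spef2 to Prlr, so 2 intervals supplied 11 of them.

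The X chromosome held 126 desert regions, of which 7 were up and 4 were down, and the Y chromosome held 11, of which 0 were up and 1 was down. Among autosomes, down regions outnumbered up regions in the deserts of chromosomes 12 (18 and 17), 15 (18 and 14), 17 (7 and 4) and 7 (8 and 7). These chromosomes held 520, 293, 159 and 138 desert regions in the order named. Single intervals supplied many of their down regions. Between Sel1l and Gm40892 lay 11 of the 18 on chromosome 12, and between Pabpc6 and Qk 6 of the 7 on chromosome 17. Shares over all regions of each chromosome were not computed. On chromosomes 8, 9 and 11, up regions numbered 18, 20 and 16 and down regions 2, 2 and 1. Desert regions were 3 of the first 10 lines of the down list, 11 of the first 50 and 11.8% of the whole list. For the up list they were 1 of the first 10 lines, 3 of the first 50 and 8.17% of the whole. What the order of lines stands for is not given in the sources used here.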

How the data were processed

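ATAC-seq was performed on about 75000 cells per replicate, per the labels' protocols. BWA, ArchR, MACS2, HOMER 4.11.1 and build mm10 (GRCm38) are named in the submitters' processing notes, without role or order. The deposited tables hold region positions and widths only. Whether peaks were called per sample or pooled, the differential test and its threshold are not given in the sources used here. The up and down lists are the authors' deposited calls.

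Starts were raised by 1, after which all 3845 up and 1275 down regions were identical to one of the 91266 regions. Coordinates are 1-based. Genes came from RefSeq (GRCm38.p6, 21900 protein-coding genes). Left out were 108 ending before 3 Mb on chromosomes other than Y, which carry scaffold coordinates. Distance is the number of bases between region and gene span. The table may be incomplete, so a desert may hold genes not listed in it. The placement was tested on 6000 simulated regions with 0 mismatches. Python 3.11.15, pandas 2.3.3 and scipy 1.17.1 were used.

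The planned test of the doses could not be made without values per sample, so shares are descriptions with Wilson intervals and no test. Deserts and regions were named by number of listed regions, distance, width, length and bounding genes. The membership rule uses position only, but the rule and the gene lists were chosen with earlier results of these data known. Sequence features of whole regions were not analysed, because no genome sequence was used here. The listed regions of 2 intervals are counted in the totals but are not reported here.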

Additional observations from a re-analysis of the deposited data

How the results depend on the processing

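No paired analysis was possible because region positions carry no measurement of any single replicate, although replicates are numbered 1 and 2 in both doses. For the same reason another normalization, leaving out replicates and stricter thresholds were not run, and the search of whole regions or their central 200 bp was not run without a genome sequence. Of 47 alternative values for 7 results, 30 stayed within the 95% interval of the reported value or, for counts, within 1.5 times of it, and 17 moved. The alternatives without antigen receptor intervals, with curated genes only and without the 5 deserts richest in down regions were chosen after seeing the data. The overlap rule could not change anything, since listed regions are identical to regions of the full set.

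The up share of 5.64% became 5.04% with genes of any biotype and 7.71% among regions at least 250 bp wide. The down share of 2.69% became 2.16% beyond 50 kb, 2.08% beyond 500 kb, 5.78% with genes of any biotype, 3.56% at 250 bp or wider and 2.08% without the 5 deserts richest in down regions. Beyond 500 kb the down share rests on 10 of 481 regions, and its interval of 1.13 to 3.78% includes the 1.40% of all regions. The up share of the listed, 67.7%, became 74.0% beyond 50 kb, 72.2% beyond 500 kb, 46.6% with genes of any biotype and 73.2% without those 5 deserts. The 99 deserts with 2 or more listed regions became 181 beyond 50 kb, 41 beyond 200 kb, 5 beyond 500 kb and 13 with genes of any biotype, since these settings admit more or fewer regions. Mean widths were 502.0 bp for up and 418.7 bp for unlisted regions, against medians of 468 and 335 bp. The cause of the other moves was not tested. Depth is unknown and limits every list.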
